A study of Homo sapiens with 8 samples.

Results

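The genes of the nuclear lamina and of the proteins that link it to the cytoskeleton were examined in ATAC-seq peak lists, where a peak is a stretch of DNA into which a transposase inserted sequencing adapters more often than around it, a sign of open chromatin. The set was named by gene: LMNA, LMNB1, LMNB2, EMD, BANF1, SUN1, SUN2, SYNE1, SYNE2 and SYNE3, 10 of 20163 protein-coding genes in the annotation. For each gene, peaks lying in the gene body with 50 kb on each side were taken from 8 lists. Peaks from different lists were merged where they shared at least 1 bp, and regions with a peak in at least 2 libraries were kept as sites. This gave 123 sites in the windows of these genes, of 75501 sites in the genome, and 0 of them lay in the windows of 2 members.

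The cells were LX-2, a wild type immortalised line of human hepatic stellate cells, so all groups come from 1 line. They were cultured on polyacrylamide hydrogel, either a soft matrix of about 2 kPa or a stiff matrix of about 40 kPa, and collected on day 2 or day 4. The day and the matrix name the groups (D2 or D4, soft or stiff), each with 2 libraries, and no other agent or allele separated them. The study's methods call the replicates of its sequencing experiments biological, while the labels do not name the culture behind each library, and the p-values measure the spread between these libraries.

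The list of D2 soft replicate 1 was unlike the others. It held 29789 peaks, against 55754 to 72840 in the others, and the depth estimated from it was 0.78 fragments per kb of genome, against 2.08 to 3.15. The line was checked against markers at canonical starts (the start of the transcript that the annotation marks as representative). Of 10 stellate and myofibroblast markers, 4 had a peak in every library (PDGFRB, ACTA2, TAGLN and VIM) and 3 had none in any library (DES, LRAT and COL3A1). None of 6 hepatocyte markers had a peak in more than 1 library, while 1 leukocyte marker of 4 (CD68) had one in every library. KDR, 1 of 3 endothelial markers found in the annotation, and SOX9, 1 of 4 cholangiocyte markers, had one in 7 libraries.

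As background, lamins are intermediate filament proteins that form a meshwork under the inner nuclear membrane. Proteins of the SUN family cross the inner membrane and bind, in the space between the membranes, the KASH domains of nesprins in the outer membrane, and the joined complex connects lamina and cytoskeleton. A-type lamin is known to be more abundant in stiff than in soft tissues, and hepatic stellate cells become contractile myofibroblasts in the stiffening liver.

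Stretches of 151 bases around the summits of 8 of the sites are printed first, to show the letters on which the motif counts below rest. They were chosen after the motif matches were known, among windows without annotated untranslated sequence, and are read from the forward strand of GRCh37 (hg19). Capitals mark matches, on either strand, to TGACTCA or TGAGTCA (the motif of AP-1, the FOS and JUN family of transcription factors), GGAATG (TEAD), GGGCGG (the GC box) or CCAAT.
EMD promoter, chrX:153607163-153607313: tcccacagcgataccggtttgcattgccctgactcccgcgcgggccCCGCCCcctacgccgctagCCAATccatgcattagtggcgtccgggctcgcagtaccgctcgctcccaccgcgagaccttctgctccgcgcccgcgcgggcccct
SYNE2 promoter at the canonical start, chr14:64319541-64319691: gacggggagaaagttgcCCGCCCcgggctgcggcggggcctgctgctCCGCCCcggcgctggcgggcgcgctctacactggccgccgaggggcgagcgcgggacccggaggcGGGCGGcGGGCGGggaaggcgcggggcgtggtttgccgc
SYNE1 start inside the gene, chr6:152702495-152702645: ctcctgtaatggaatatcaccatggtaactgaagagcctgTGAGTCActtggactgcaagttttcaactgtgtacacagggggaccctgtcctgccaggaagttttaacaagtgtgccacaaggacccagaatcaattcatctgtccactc
BANF1 upstream flank, chr11:65741322-65741472: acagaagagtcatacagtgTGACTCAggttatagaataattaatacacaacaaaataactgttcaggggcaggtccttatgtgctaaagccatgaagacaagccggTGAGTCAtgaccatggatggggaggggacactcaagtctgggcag
SUN2 downstream flank, chr22:39114576-39114726: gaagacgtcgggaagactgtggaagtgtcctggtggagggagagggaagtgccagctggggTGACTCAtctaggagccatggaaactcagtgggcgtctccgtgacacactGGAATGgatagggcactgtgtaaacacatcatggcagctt
LMNA intron, chr1:156100069-156100219: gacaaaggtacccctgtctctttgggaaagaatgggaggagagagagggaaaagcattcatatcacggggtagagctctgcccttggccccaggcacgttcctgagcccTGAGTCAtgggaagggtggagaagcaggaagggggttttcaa
SYNE3 intron, chr14:95949672-95949822: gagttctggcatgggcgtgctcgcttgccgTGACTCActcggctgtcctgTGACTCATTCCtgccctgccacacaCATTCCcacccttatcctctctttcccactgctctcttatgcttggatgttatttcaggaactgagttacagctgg
LMNB2 upstream flank, chr19:2469477-2469627: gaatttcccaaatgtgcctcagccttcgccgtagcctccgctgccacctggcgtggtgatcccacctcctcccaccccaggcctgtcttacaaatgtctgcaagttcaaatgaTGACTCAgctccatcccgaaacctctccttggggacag
The first and second of these sequences hold GC boxes, with 1 match in the EMD window and 4 in the SYNE2 window. The other 6 hold AP-1 matches, and the SYNE3 window has 2 of them beside 2 TEAD matches.

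It was first asked at which of these genes the starts were open. A promoter site was one whose summit lay within 1 kb of an annotated start of the gene itself, and 23 of the 123 sites were of this kind. LMNA, LMNB1, EMD, SYNE1, SYNE2 and BANF1 had a peak within 1 kb of the canonical start in all 8 libraries, which is 6 of 10 members, and the share among 19881 genes was 40.3%. Counting any annotated start, the share was 46.0% of 20163 genes and the members were the same 6. LMNB2, SUN1 and SUN2 had one in 7 libraries and lacked it in D2 soft replicate 1. SYNE3 had one in D2 stiff replicate 1 and in no other library. When each list was cut to its 29789 strongest peaks, the 6 genes kept 8 of 8 libraries, SUN2 had a peak in 6, LMNB2 in 5, and SUN1 and SYNE3 in 0.

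The strength of a peak is given as its percentile within its own list, ordered by −log10 p, so that a low percentile is a strong peak. It does not depend on the scale of p in a library, but it does depend on how many weak peaks the list holds. The fold enrichment of a peak is its summit pileup over the local background of the same library. Fold values set side by side for different libraries were not scaled to each other, and the tests therefore use ranks. Averaged over the libraries with a peak, the sites at canonical starts were ordered LMNB1 (2.51), BANF1 (3.63), EMD (6.6), LMNA (13.8), SYNE2 (41.9), LMNB2 (45.8), SYNE1 (57.8), SUN2 (61.4 and 64.2 at 2 neighbouring sites) and SUN1 (78.6). The first 4 genes ranged from 0.543 to 22.9 over all libraries, and neighbours in this order overlapped in their ranges.

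**Figure D1:**
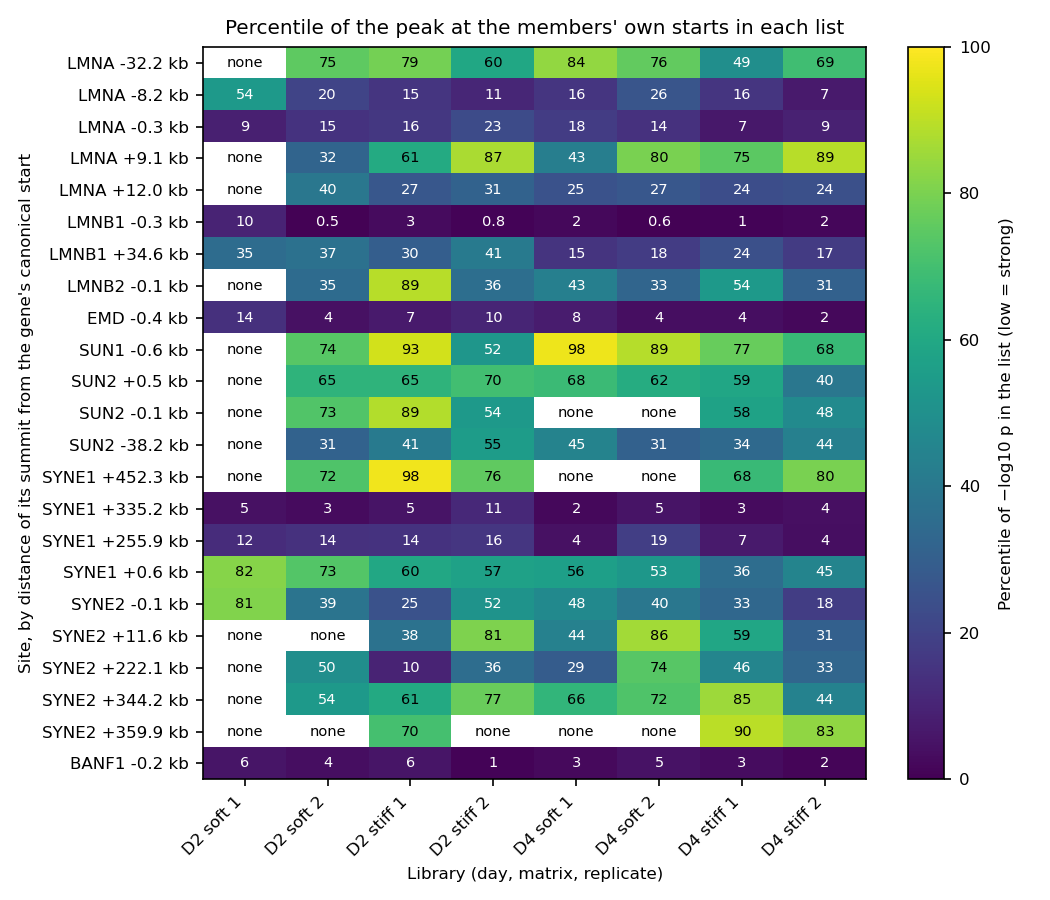
Percentile of the peak at each of the 23 promoter sites (rows, named by gene and by the distance of the summit from the canonical start) in the 8 libraries (columns), with "none" where a list has no peak and dark cells for strong peaks. The rows at the canonical starts of LMNB1, EMD and BANF1 are dark in every library, and most missing peaks lie in the column of D2 soft replicate 1.

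Lamin genes came first in the order of roles. LMNA encodes lamins A and C by alternative splicing, and LMNB1 and LMNB2 encode the B-type lamins. At the LMNB1 start (chr5:126112210-126114458, exon and promoter) the percentile was 9.93 and 0.543 for D2 soft, 2.83 and 0.846 for D2 stiff, 2.22 and 0.649 for D4 soft, and 1.17 and 1.90 for D4 stiff. It was thus among the strongest 10% of peaks in every list, D2 soft replicate 1 was the weakest, and the soft and stiff libraries overlapped. The reconstructed pileup at its summit was 30 fragments in D2 soft replicate 1 and 60 to 141 in the others. The score of this site on ranks of the fold enrichment was 0.43 lower in stiff than in soft libraries (limma standard error 0.34, adjusted p = 0.791), which is not beyond the spread. A second LMNB1 start, in an intron 34570 bp downstream (chr5:126147082-126147822, the start of a retained-intron transcript), had a percentile of 30.0 to 40.9 in the 4 day 2 libraries and of 14.9 to 24.3 in the 4 day 4 libraries. These ranges did not overlap. All day 4 libraries were stronger than all day 2 libraries by percentile at 4 of the 40 member sites with a peak in every list (10%), beside 4.85% of all 24246 such sites, and weaker at 0, beside 0.235%. The rank score of the LMNB1 site was 0.74 higher on day 4 (limma standard error 0.34, adjusted p = 0.691), so that the difference did not pass the adjusted threshold.

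The LMNA window held 15 sites, 5 of them at LMNA starts. The site at the canonical start (chr1:156083767-156085448) had a percentile of 8.95 and 14.6 for D2 soft, 16.4 and 22.9 for D2 stiff, 17.6 and 14.3 for D4 soft, and 6.58 and 9.01 for D4 stiff. On day 2 both stiff libraries were weaker than both soft libraries, and on day 4 both were stronger. This order of percentiles was found at 1 of 40 member sites with a peak in every list (2.5%), beside 2.17% of all. Neither difference was beyond the spread, with a rank score 0.84 lower on stiff on day 2 (limma standard error 0.51, adjusted p = 0.72) and 0.16 higher on day 4 (limma standard error 0.51, adjusted p = 0.99).

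A start of an LMNA transcript at a distance of −8226 bp from the canonical start (chr1:156075972-156076402, in an intron of longer LMNA transcripts) had its higher values in the stiff libraries, within the limits of the test below. Its fold enrichment was 5.86 and 9.59 for D2 soft, 10.7 and 11.7 for D2 stiff, 10 and 8.24 for D4 soft, and 11.4 and 13.0 for D4 stiff. Every stiff library lay above every soft library, also in rank score. In fold enrichment this held at 4 of the 40 member sites with a peak in every library (10%), beside 9.56% of all, and the opposite at 0, beside 0.0577%. In rank score the LMNA site was the 1 member site of this kind (2.5%), beside 1.88% of all 24246 such sites. Both shares were near the background. The rank score was 0.59 higher on stiff over both days (limma standard error 0.34, adjusted p = 0.706), and 0.46 to 0.68 higher when each library in turn was left out. The opposite order in rank score, every stiff library below every soft library, was also found at 1 of 40 member sites, beside 2.12% of all, and this was the promoter of GTPBP1 in the SUN2 window described below. Further LMNA starts, at chr1:156095888-156097266, chr1:156092543-156093714 and chr1:156052016-156053006, lacked a peak in D2 soft replicate 1 and had mean percentiles of 28.3, 66.8 and 70.3.

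LMNB2 had 1 promoter site (chr19:2456954-2457362, summit 95 bp upstream of the start), with a fold enrichment of 9.89 in D2 soft replicate 2, 4.57 and 9.57 for D2 stiff, 7.85 and 8.88 for D4 soft, and 7.02 and 10.3 for D4 stiff. The pileup was 7 fragments in D2 stiff replicate 1 and 18 to 26 in the others with a peak, so the weakest library with a peak was a stiff one. D2 soft replicate 1 had no peak at this site. Beyond the promoters, the strongest site of the lamin genes lay 107390 bp downstream of the LMNB1 canonical start (chr5:126219681-126220521), with a percentile of 0.799 to 6.03 and a fold enrichment between 12.3 and 17.7. The nearest annotated start there was that of MARCHF3, 6129 bp away. The next LMNB1 flank site (chr5:126071739-126072164, mean percentile 41.1) was missing from D2 soft replicate 1. In the LMNA window the strongest sites away from LMNA starts were the promoter of LAMTOR2 (chr1:156023529-156025225, mean percentile 27.2) and an intron (chr1:156066408-156067084, 28.5 over 6 libraries). In the LMNB2 window they were chr19:2503479-2504137 (mean percentile 31.0) and chr19:2491288-2491927 (32.3 over 7 libraries), both upstream.

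EMD encodes emerin, a protein of the inner membrane that binds lamins, and BANF1 encodes a small DNA-binding protein that bridges chromatin and emerin. The EMD promoter (chrX:153606612-153608032), which holds the first printed sequence, had a percentile of 14 and 4.33 for D2 soft, 7.12 and 10.3 for D2 stiff, 7.6 and 3.52 for D4 soft, and 3.70 and 2.23 for D4 stiff. The BANF1 promoter (chr11:65769079-65770461) had 5.53 and 3.82 for D2 soft, 5.75 and 1.14 for D2 stiff, 2.72 and 5.03 for D4 soft, and 3.49 and 1.55 for D4 stiff. At both genes the soft and stiff libraries overlapped, and the start was strong in every list. The mean stiff minus soft rank score was −0.50 at EMD (limma standard error 0.35, adjusted p = 0.767) and 0.01 at BANF1 (limma standard error 0.35, adjusted p = 0.996). Their windows are gene-dense, and 7 of 9 BANF1 sites and 6 of 11 EMD sites had a peak in every library. The promoter of SF3B2 in the BANF1 window (chr11:65819252-65820177) had a percentile of 0.0563 to 1.43 in 7 libraries and of 21.4 in D2 soft replicate 1. The next BANF1 site, chr11:65756367-65757027 in the upstream flank, had a mean percentile of 7.65. In the EMD window the strongest other sites were the start of ATP6AP1-DT (chrX:153656651-153657470, mean percentile 8.93) and chrX:153596969-153598362 upstream (12.4), near FLNA.

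SUN1 and SUN2 encode the inner-membrane side of the linker. The SUN1 start (chr7:871405-872717) carried the weakest of the canonical promoter peaks that were present in 7 libraries. Its percentile was 73.9 in D2 soft replicate 2, 93.3 and 52.4 for D2 stiff, 97.6 and 88.7 for D4 soft, and 76.6 and 67.5 for D4 stiff, and its pileup was 6 to 14 fragments. On day 4 both stiff libraries were stronger than both soft ones. This order was found at 31.5% of all sites with a peak in every library, a set that leaves out this site. On day 2 the stiff libraries lay on both sides of the single soft library with a peak. A site upstream, at −19178 bp from the canonical start (chr7:852298-853308) was the 1 SUN1 site found in every library, with a percentile of 81.5 in D2 soft replicate 1 and 26.4 to 40.8 in the others. The next SUN1 site, at a start of ADAP1 (chr7:944286-944780), had a peak in both D4 stiff libraries and in no other.

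At the SUN2 start 2 sites lay next to each other. The downstream one (chr22:39151012-39151697) had a peak in 7 libraries, with percentiles of 39.7 to 69.9. The upstream one (chr22:39151984-39152454, 79 bp before the canonical start) had a peak in D2 soft replicate 2 and in all 4 stiff libraries, and none in D2 soft replicate 1 or in either D4 soft library. Its pileup was 13 in D2 soft replicate 2, 9 and 20 for D2 stiff, and 26 and 24 for D4 stiff. A further SUN2 start (chr22:39189908-39190527), shared with DNAL4, had a peak in 7 libraries with percentiles of 30.9 to 55.3. The strongest site of the SUN2 window was the promoter of the neighbouring gene GTPBP1 (chr22:39101320-39102470), with percentiles of 1.44 to 4.78 by −log10 p. Ordered by fold enrichment it was at 4.36 and 16.8 for D2 soft, 17.3 and 16.4 for D2 stiff, 15.7 and 3.37 for D4 soft, and 25.3 and 27.7 for D4 stiff, so that on day 4 the stiff libraries were the weaker ones. In these percentiles, and in fold enrichment itself, soft and stiff libraries overlapped over both days, and the full separation was one of rank score. Both stiff libraries were below both soft libraries in day 4 rank score at 12.5% of the 40 member sites, beside 20.7% of all. At the GTPBP1 promoter the day 4 rank score was 1.08 lower on stiff (limma standard error 0.51, adjusted p = 0.92). It was 0.31 lower with ranks of −log10 p, and the difference lay between −1.59 (without D4 soft replicate 1) and −0.56 (without D4 soft replicate 2) when each library in turn was left out. The next site, chr22:39198693-39199112 in the upstream flank, had a mean percentile of 30.9 over 6 libraries.

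Nesprins are the outer-membrane side of the linker. SYNE1 and SYNE2 encode nesprin-1 and nesprin-2, giant proteins with actin-binding domains and many shorter isoforms from inner starts, and SYNE3 encodes nesprin-3, which binds plectin. SYNE1 and SYNE2 span 516115 and 464535 bp and held 23 and 21 sites, together 35.8% of the 123. In SYNE1 the strongest peaks were at starts inside the gene. The site 335181 bp downstream of the canonical start (chr6:152622749-152623657, at the start of a protein-coding transcript) had a percentile of 4.65 and 2.81 for D2 soft, 5.14 and 11.4 for D2 stiff, 2.06 and 5.42 for D4 soft, and 2.76 and 4.12 for D4 stiff. The site 255927 bp downstream (chr6:152701600-152703073), which holds the SYNE1 sequence with an AP-1 match, had 12.5 and 14.4, 14.5 and 15.7, 4.30 and 18.7, and 7.31 and 3.82 in the same order. Soft and stiff libraries overlapped at both. Another SYNE1 start (chr6:152505840-152506587, mean percentile 78.6) had a peak in D2 soft replicate 2 and in all 4 stiff libraries.

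The canonical SYNE1 start (chr6:152957430-152958568, an exon) was weaker than both of the strong inner starts in every library. Its percentile was 81.8 and 73.1 for D2 soft, 59.9 and 57.2 for D2 stiff, 56.3 and 52.8 for D4 soft, and 35.9 and 45.2 for D4 stiff, so within each day both stiff libraries were stronger than both soft libraries, as at 5 of 40 member sites (12.5%), beside 9.64% of all. The fold enrichment was 4.57 to 6.73 in soft and 6.76 to 9.35 in stiff libraries, a separation that 9.56% of all sites with a peak in every library also had. The pileup was 5 to 16 and 12 to 28 fragments, and the part of depth in this order was not tested. On ranks the difference was 0.43 (limma standard error 0.34, adjusted p = 0.791) and lay between 0.33 and 0.53 when each library in turn was left out, which is not beyond the spread. Other SYNE1 sites in the rule for named sites were chr6:152416224-152416663 downstream of the gene (mean percentile 17.6, all libraries) and chr6:152637052-152637609 in the gene (28.0, 6 libraries).

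**Figure D2:**
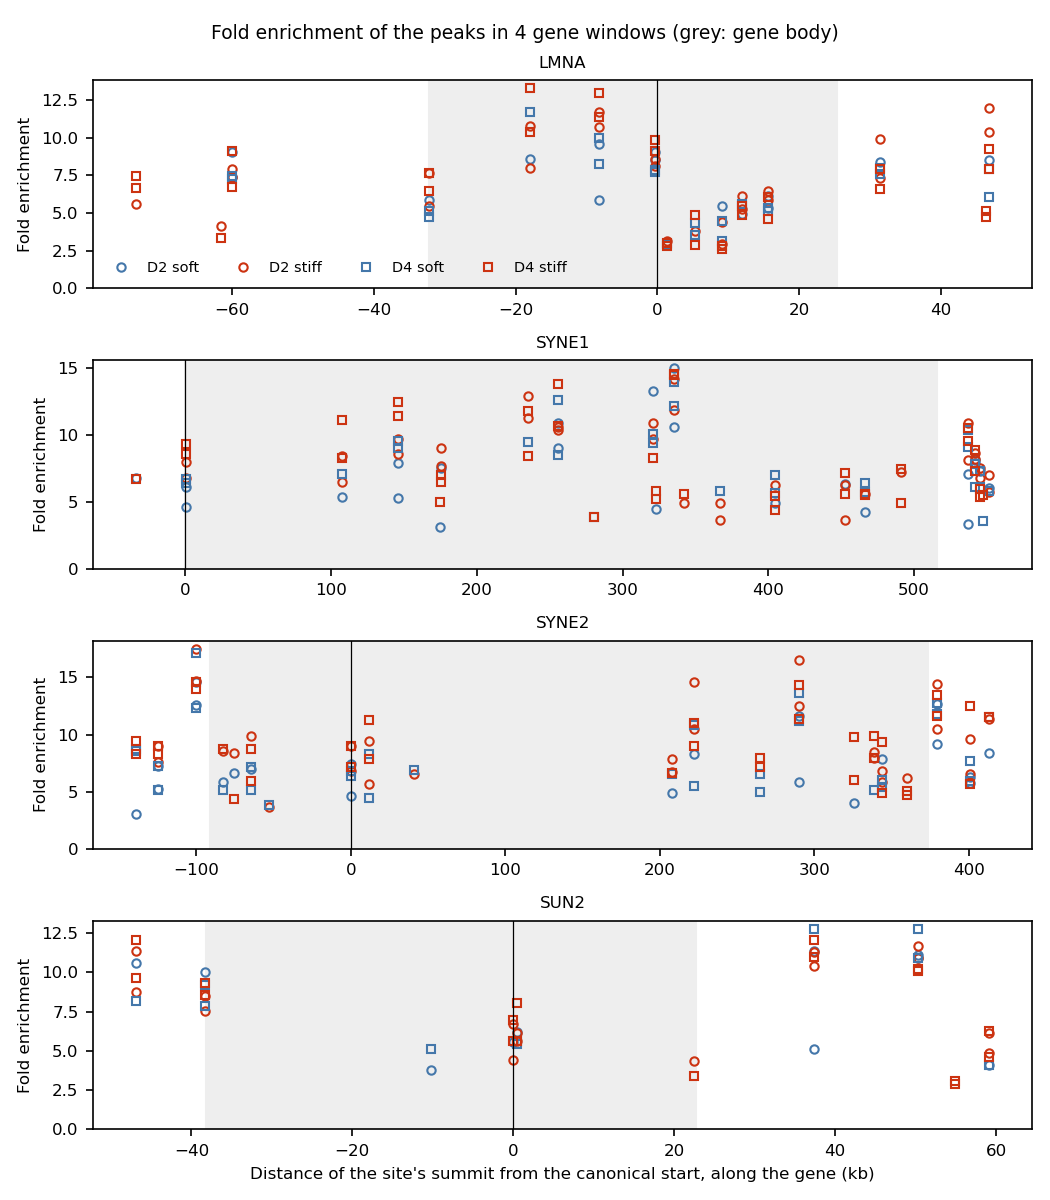
Fold enrichment of every peak in the windows of LMNA, SYNE1, SYNE2 and SUN2 against the distance of the site's summit from the canonical start along the gene (kb, line at 0), with 1 symbol for each library (blue soft, red stiff, circles day 2, squares day 4) and the gene body in grey. In SYNE1 the start 335181 bp inside the gene reaches a fold enrichment of 15.0, above the canonical start at 4.57 to 9.35.

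SYNE2 had 5 promoter sites. The canonical start (chr14:64319378-64321063), with its 4 GC boxes, had a percentile of 81.2 and 38.6 for D2 soft, 25.3 and 51.5 for D2 stiff, 47.6 and 39.8 for D4 soft, and 33.3 and 18.3 for D4 stiff. On day 4 both stiff libraries were stronger than both soft libraries, as at 15 of 40 member sites (37.5%), beside 31.5% of all, and on day 2 the groups overlapped. The rank score was 0.20 higher on stiff (limma standard error 0.35, adjusted p = 0.92). A start 11558 bp downstream (chr14:64330774-64332245) had a peak in both D2 stiff, both D4 soft and both D4 stiff libraries and in neither D2 soft library, with pileups of 6 to 23. The other SYNE2 starts, chr14:64541573-64542188, chr14:64663470-64664061 and chr14:64679456-64680015, had a peak in 7, 7 and 3 libraries, with mean percentiles of 39.6, 65.6 and 81.2. The strongest SYNE2 sites were away from its starts, at chr14:64219334-64220195 upstream (percentile 2.39 to 8.13) and chr14:64698814-64699729 downstream of the gene (4.85 to 20.9), both in every library.

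SYNE3 had 11 sites and no promoter site, since its single promoter peak occurred in 1 library. Its strongest sites were the start of SNHG10 (chr14:96000738-96001427, 18148 bp upstream of the SYNE3 start), with a percentile of 2.86 to 16.7, and an intron (chr14:95973551-95974444) with 9.84 to 36.1. A further intronic site (chr14:95927243-95927914), named after its values were seen because it had the smallest p of the members, had a fold enrichment of 6.34 and 10.9 for D2 soft, 8.52 and 12.4 for D2 stiff, 8.21 and 8.52 for D4 soft, and 13.4 and 15.8 for D4 stiff. On day 4 both stiff libraries were above both soft libraries, as at 16 of 40 member sites (40%), beside 41.8% of all, and on day 2 the groups overlapped. The day 4 rank score was 1.73 higher on stiff (limma standard error 0.50), and its p adjusted over 24246 sites was 0.879. With ranks of −log10 p the difference was 1.04.

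It was then asked whether stiffness moved the strength of the sites that could be ranked in every library. The 40 member sites with a peak in every library were 32.5% of 123, and 32.1% of all sites had this property. Within each library all 24246 such sites were ranked by fold enrichment, and the ranks were turned into normal scores and fitted with limma with 4 group means, with Benjamini-Hochberg adjustment over all 24246 sites. Limma called 0 of the 40 member sites in any of 5 comparisons. Of all sites, limma called 0.00412% for stiff against soft on day 2 (1 site), 0.00825% on day 4 (2 sites), 0.00825% for the mean of both days (2 sites), and 0% both for day 4 against day 2 and for the interaction of stiffness and day. In each of the first 4 comparisons 3 member sites (7.5%) had an unadjusted p under 0.05, and in the interaction 2 (5.0%) did, beside 7.65, 5.35, 7.72, 6.91 and 5.27% of all sites in the same order. Without D2 soft replicate 2, so that the shallow library alone stood for its group, limma called 296 sites on day 2, 6 on day 4, 90 for their mean and 56 between days, and 0 of these were member sites.

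On day 2 the rank score was higher on stiff at 19 and lower at 21 of the 40 member sites, with a median difference of −0.05 (−0.02 over all sites). On day 4 it was higher at 22 and lower at 18, with a median of 0.04 (−0.02 over all sites). Ranking within each library removes any shift that all sites share. These scores therefore cannot show a general gain or loss on stiff, only changes of a site relative to the others. The median limma standard error of a single site was 0.50 in each of these comparisons. Member sites with an unadjusted p under 0.05 on day 2 were SYNE1 at chr6:152421074-152421789 (difference 1.52, adjusted p = 0.514), LMNB2 at chr19:2469039-2469807 (1.37, adjusted p = 0.558) and SYNE2 at chr14:64609745-64610525 (1.3, adjusted p = 0.582), all higher on stiff in the limma fit and all named after their values were seen. At the first of these the fold enrichment was 3.35 in D2 soft replicate 1, 7.06 in D2 soft replicate 2, and 10.9 and 8.15 for D2 stiff, so the shallow library was the lowest. The difference at this site was 0.74 without D2 soft replicate 1 and 2.2 without D2 soft replicate 2. The LMNB2 site, whose sequence with an AP-1 match is printed above, had 5.25 and 6.46 for D2 soft and 12.5 and 9.92 for D2 stiff. Its difference was 0.85 without D2 stiff replicate 1 and 1.88 without D2 stiff replicate 2. The difference at the SYNE2 site lay between 0.58 and 2.01 when each library in turn was left out. On day 4, besides the SYNE3 site and the GTPBP1 promoter, the start of GAL3ST3 in the BANF1 window (chr11:65812347-65813234) was 1.25 higher on stiff (adjusted p = 0.92 in limma).

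**Figure D3:**
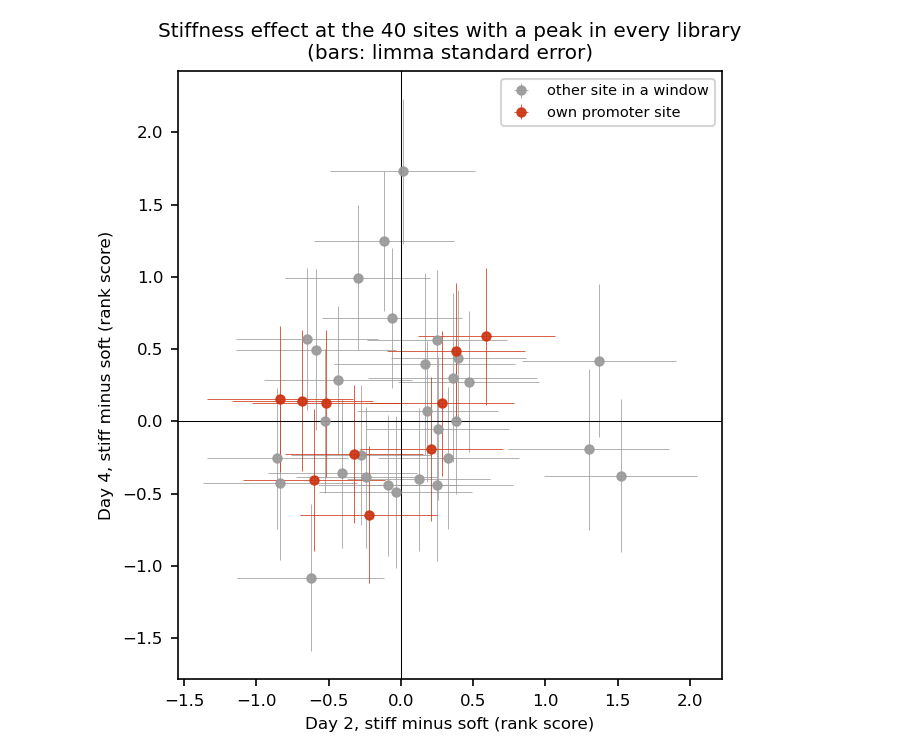
Stiff minus soft difference in rank score on day 2 (horizontal axis) and day 4 (vertical axis) at the 40 member sites with a peak in every library, with bars of 1 limma standard error and the promoter sites of the members in red. The points lie around 0 on both axes, and 0 of them passed an adjusted p of 0.05. The scores are ranks within each library, so a shift shared by all sites cannot appear.

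Sites that appear in some lists alone were compared by presence. A site was stiff-only on a day if both stiff libraries and neither soft library of that day had a peak. With 2 libraries on each side the smallest exact permutation p is 0.33, and the values are therefore given as counts without a test. On day 2, 6 of 123 member sites were stiff-only (4.88%), beside 7.45% of all sites, and 0 were soft-only, beside 0.391%. On day 4, 14 were stiff-only (11.4%), beside 6.72% of all sites, and 1 was soft-only (0.813%), beside 1.31%. By the depth estimate the D4 stiff libraries were the deepest, with 3.15 and 2.87 fragments per kb against 2.69 and 2.72 for D4 soft. With lists of equal length the member counts on day 4 were 2 stiff-only and 2 soft-only of 67 sites (2.99% each), beside 3% and 2.81% of all sites. No excess over the background on day 4 was left with equal lists. The cut to the 29789 strongest peaks removes weak sites, and the 14 stiff-only sites were weak (median of the mean percentiles 73.8). Equal lists therefore cannot tell whether the excess in the full lists went with depth, and this was not tested. On day 2 equal lists gave 4 stiff-only member sites (5.97%), beside 4.06% of all, and 2 soft-only (2.99%), beside 3.24%, so that the stiff-only share passed from below to above the background. Single libraries moved the counts and the background together. Without D2 soft replicate 2, 38 of 120 member sites were stiff-only on day 2 (31.7%), beside 29.7% of all. Without D4 soft replicate 1, 23 of 115 were stiff-only on day 4 (20%), beside 15.6% of all. Without D4 stiff replicate 1 the day 4 share was below the background, with 10 of 111 (9.01%) beside 9.66%. It stayed above the background when any other single library was left out. Examples are 16.5% beside 11.0% without D4 soft replicate 2, and 13.0% beside 8.48% without D4 stiff replicate 2.

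The 14 stiff-only sites of day 4 lay in the windows of 7 members: 2 in LMNA, 1 in LMNB2, 1 in EMD, 1 in SUN1, 2 in SUN2, 4 in SYNE1 and 3 in SYNE2. They were weak, with a median of the mean percentiles of 73.8 and a median pileup of 12 fragments, against 19.4 and 35 at the 40 sites that all lists shared. Of the 14 sites, 3 were at member starts, namely the upstream SUN2 site at chr22:39151984-39152454, the SYNE1 start at chr6:152505840-152506587 and the SYNE2 start at chr14:64679456-64680015. On day 2 the stiff-only sites were 1 each in the LMNB1 and EMD windows and 2 each in SYNE1 and SYNE2.

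No member site had a peak in all 4 stiff libraries and in no soft library (0 of 123, beside 0.850% of all sites), and 0 had the opposite (0.0172% of all). With lists of equal length 1 of 67 had the first pattern (1.49%), beside 0.279% of all. Sites with a peak in all 4 stiff libraries and in at most 1 soft library numbered 6 (4.88%, beside 3.49% of all), and 0 had the mirror pattern (0.0570% of all). This cut was chosen after the presence patterns were seen. The 6 sites were 1 in the LMNB1 flank, the upstream SUN2 start, 3 in SYNE1 and 1 in SYNE2. The strongest was in an intron of SYNE1 near the start of another annotated gene (chr6:152723152-152723866), with a fold enrichment of 12.9 and 11.3 for D2 stiff, 9.47 in D4 soft replicate 1, and 8.40 and 11.8 for D4 stiff. It had a match to AP-1 and a match to TEAD within 100 bp of its summit. With lists of equal length 2 of 67 member sites had this pattern (2.99%, beside 1.33% of all), and without D2 soft replicate 1 there were 8 of 123 (6.5%, beside 3.88%).

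An EMD flank site (chrX:153601719-153602029) was stiff-only on day 2 and soft-only on day 4. Its fold enrichment was 3.24 and 2.75 for D2 stiff and 2.80 and 3.28 for D4 soft, with pileups of 28 to 36 fragments, and the other 4 libraries had no peak. Of all sites 0.0781% had this order and 0.0318% the opposite one, which no member site had.

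The number of peaks in each window was counted as well. In all windows together it was 48 and 90 for D2 soft, 98 and 99 for D2 stiff, 97 and 90 for D4 soft, and 113 and 109 for D4 stiff. As a share of the list this was 0.150% to 0.171%, so the windows followed the length of the lists. LMNB1 had 4 and 4 peaks for D2 soft, 7 and 7 for D2 stiff, 6 and 6 for D4 soft, and 7 and 7 for D4 stiff. SUN2 had 3 and 7 for D2 soft, 8 and 10 for D2 stiff, 5 and 5 for D4 soft, and 10 and 9 for D4 stiff. These were the 2 members, of 10, with more peaks in every stiff than in every soft library. Among 19434 genes 5.26% had this order and 0% the opposite one, and without D2 soft replicate 1 the share was 5.31% and the members were again 2. With lists of equal length 1 member had it, and with flanks of 10 kb or with the gene body alone 0 did. The share of all genes was not counted under these settings, so these counts have no background.

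**Figure D4:**
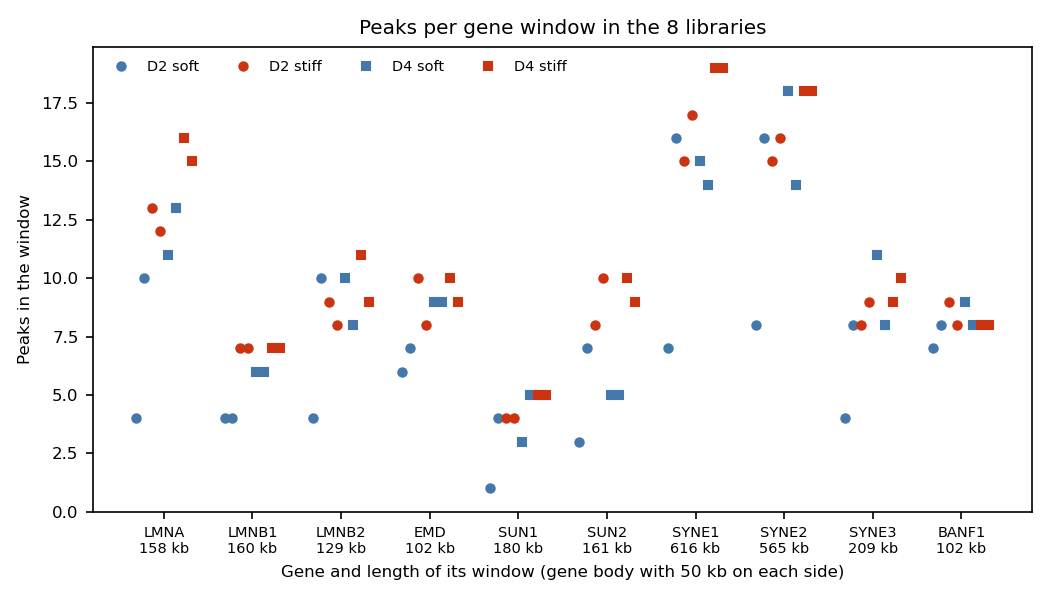
Number of peaks in the window of each gene (gene body with 50 kb on each side, its length in kb under the name) in each of the 8 libraries, with soft libraries in blue, stiff in red, circles for day 2 and squares for day 4. LMNB1 and SUN2 are the 2 genes whose red points all lie above their blue points, and the lowest or joint lowest point of every gene is a D2 soft library.

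Promoter-type sites, within 1 kb of the start of any gene, made up 52 of the 123 member sites (42.3%), against 26.0% of all sites. The member windows are set around genes and hold their starts, and windows around other genes were not counted as a background. Of the 52 sites 42.3% had a peak in every library, against 50.8% of all promoter-type sites. The share for the 71 distal sites was 25.4%, against 25.6%. In the AP-1 search, 23.1% of the promoter-type member sites had a match within 100 bp of the summit (12.9% of all promoter-type sites), and 33.8% of the distal ones (36.3% of all). TEAD letters were in 5.77% and 18.3% (11.3% and 21.8% of all). The GC box was in 44.2% of the promoter-type sites (45.2% of all) and in 16.9% of the distal ones (5.97% of all). The median share of G and C letters was 64.4% at the promoter-type sites (63.2% of all) and 49.8% at the distal ones (45.8% of all). Its part in the GC box shares was not tested. CCAAT was in 25.0% and 21.1% (26.5% and 24.1% of all). The CArG box, the motif of serum response factor, was in 0 of 52 promoter-type sites and 1 of 71 distal ones (0.893% and 1.24% of all). CCAAT and the TEAD letters are short, TEAD matches can overlap AP-1 matches as in the SYNE3 window, and a match is a description of the letters.

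For comparison, 19 other genes of the nuclear envelope were taken through the same steps. A peak at the canonical start was present in every library at 10 of the 19, beside 40.3% of 19881 genes. Among the 10 were LBR (the lamin B receptor), TMPO and LEMD3, which encode further inner-membrane proteins, and ZMPSTE24, the protease that matures lamin A. ICMT, which encodes a methyltransferase of the same maturation, had one in all 4 stiff libraries and in 1 soft library. It lacked one in D2 soft replicate 1, the shallow library, and in both D4 soft libraries. The share of all genes with this order was not counted. SYNE4, SUN3, SUN5 and KASH5 had none at the canonical start in any library. The windows of these genes held 116 sites. A peak was present in all libraries at 45 of these sites (38.8%), beside 32.1% of all sites. Limma called 0 of the 45 for stiff against soft on day 2 or day 4. At an unadjusted p under 0.05 in limma there were 2 and 1 of the 45, beside 7.65% and 5.35% of all sites. Stiff-only sites were 7.76% of the 116 on day 2 and 3.45% on day 4, beside 7.45% and 6.72% of all sites. Soft-only sites were 0.862% and 2.59%, beside 0.391% and 1.31%. The higher stiff-only share of the member sites on day 4 was thus not seen in these windows.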

How the data were processed

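ATAC-seq peak lists of 8 LX-2 libraries were analysed. The authors trimmed reads with Trim Galore, mapped them to hg19 with Bowtie2 (2.4.1) and called peaks per library with MACS2 at a q-value up to 0.05. The submitters' processing notes also name Picard and bedtools (2.24.0). Tn5 offsets and caller options are not given in the sources used here. The lists deposited by the authors give fold enrichment (a ratio to local background), −log10 p and −log10 q, each relative to its own library and not scaled between lists, and a score and summit offset. The score was not used.

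Genes, starts and canonical transcripts came from GENCODE on GRCh37, and sequence from GRCh37. Pileups and local backgrounds were reconstructed from the deposited fold and p under the MACS2 model, solved for 100% of peaks. The depth estimate is the lowest of these backgrounds in a list over the width of its shortest peak (165 to 294 bp). It therefore rests on 1 background and 1 width in each list. Rank scores were fitted with limma (3.58.1, R 4.3.3) and tested on simulated data. Named sites were every promoter site of a member and the 2 other sites of its window with the best mean percentile, and further sites were named after their values were seen. The members and lists were chosen with earlier results of these data known. The read counts behind the authors' differential test were not used here. Alternatives were other list lengths, q thresholds, overlaps, flanks, ranks, blocks and left-out libraries. PECAM1 is not in the annotation used.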

Additional observations from a re-analysis of the deposited data

Results flagged for a closer look

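D2 soft replicate 1 had 48 peaks in the member windows, far from the next soft library with 90. Its list was the shortest and its estimated depth the lowest. In the BANF1 window D2 stiff replicate 1 had 9 peaks and the other 3 stiff libraries had 8 each, a difference of 1 peak. These are 2 of 28 sets of 4 libraries examined for an outlying sample, each set with both days of 1 matrix. The cutoff is meant to flag about 1 in 20 by chance. Most sets are small whole numbers, often tied, and the sets overlap, so this rate is only nominal here.

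At the EMD flank site chrX:153601719-153602029 a peak was present in 4 libraries, both D2 stiff and both D4 soft, so the matrices differed in opposite directions on the 2 days. The difference was not tested, because the site has no rank in the other libraries.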

How the results depend on the processing

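Limma called 0 member sites under every setting run. Libraries with the same replicate number in the labels shared little of their deviations (correlations of −0.041 to 0.084). Whether cultures were paired is not given by the labels. The replicate block left the calls over all sites at 1 on day 2, 2 on day 4, 2 for the mean of both days and 0 for the other comparisons. A block by the numbers inside the peak names, chosen after seeing the data because these differ from the labels, gave 0, 1 and 0 calls, and turned the mean stiff minus soft score to 0.2 at SYNE1 chr6:152701600-152703073 and −0.02 at SYNE2 chr14:64319378-64321063. In these names the number 1 occurs in soft libraries only, so this block is partly mixed with the matrix. Calls for day 2 were 0 in a fit of the day 2 libraries alone, and those for day 2 and day 4 were 0 and 0 with ranks of −log10 p. A q threshold of 0.01 gave 0 on day 2. The day 4 score of the start of GAL3ST3, chr11:65812347-65813234, was 0.9 with ranks of −log10 p and 0.97 to 1.51 when each library was left out, and the day 2 score of LMNB2 chr19:2469039-2469807 was 2.04 with the block by peak names. The causes were not tested.

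Lists of equal length gave 67 member sites, 2 soft-only on day 2, 2 stiff-only and 2 soft-only on day 4, 1 in all stiff and no soft library (above the background, where the full lists were below it), 1 member with more peaks in every stiff library, and 0, 1 and 1 limma calls on day 2, day 4 and for their mean. Requiring a peak to cover 50% of its site gave 18 sites in every library, 1 soft-only on day 2 and 1 in all stiff and no soft library. Flanks of 10 kb gave 74 sites, 19 in every library, 9 stiff-only on day 4 and 0 members with more peaks in every stiff library. The gene body alone gave 57, 15, 7 and 0, with 0 soft-only on day 4. With a peak in at least 1 replicate, 21 sites were stiff-only and 8 soft-only on day 2, and 9 soft-only on day 4. The flank and gene-body settings keep the same sites as background, of which 32.1% were in every library and 6.72% stiff-only on day 4. Shares of all sites were not counted for the cover of 50% or for a peak in at least 1 replicate, so those counts have no background. With equal lists, 10 kb flanks or the gene body, the share of all genes with more peaks in every stiff library was not counted.

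Leaving out each library in turn gave 0 to 296 limma calls on day 2, 0 to 6 on day 4, 0 to 90 for their mean and 0 to 56 between days. The highest of each came without D2 soft replicate 2, when the shallow D2 soft replicate 1 stood alone for its group and was assumed to vary like the other groups. Member sites ranged from 6 to 38 stiff-only on day 2, the highest without D2 soft replicate 2, with 12 (10.1%, beside 14.9% of all sites) without D2 stiff replicate 1 and 15 (12.5%, beside 12.4%) without D2 stiff replicate 2. They ranged from 0 to 5 soft-only on day 2, the highest without D2 soft replicate 1 (4.07%, beside 4.7% of all sites). On day 4 they ranged from 10 to 23 stiff-only, the highest without D4 soft replicate 1 (20%, beside 15.6% of all sites). The soft-only sites of day 4 ranged from 1 to 8, the highest without D4 soft replicate 2 (6.61%, beside 2.82% of all sites). Sites in all stiff and no soft library ranged from 0 to 3. Among the left-out libraries, the share of all sites with this pattern was counted only without D2 soft replicate 1 (0.939%, beside 0 of 123 member sites). The mean stiff minus soft score ranged from −0.22 to 0.24 at the BANF1 promoter, from −0.45 to 0.06 at SYNE1 chr6:152701600-152703073 and from −0.05 to 0.46 at SYNE2 chr14:64319378-64321063. Of 209 recomputed differences at 16 named results, 200 kept their direction, 9 did not and 0 passed the threshold.

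Each group had 2 libraries, no read counts were used, and absence from a list means only that no peak passed the q threshold of 0.05 there. The estimated depth was lowest in D2 soft replicate 1, at 0.78 fragments per kb.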
